A study of Mus musculus with 3 samples.

Results

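The inhibins, activins, follistatins and anti-Müllerian hormone (AMH) form a small hormone system of the ovary within the TGF-β family. Its genes were followed here in single cells of mouse ovaries at 3 ages. The members are Inha, Inhba, Inhbb, Fst, Fstl1, Fstl3, Amh, Amhr2 and Tgfbr3, 9 of the 53465 genes in the tables. They were chosen by name and role, not by their values, though with earlier results of these data known. All had at least 1 UMI (unique molecular identifier, which stands for a captured mRNA molecule) in each library.

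An α subunit, encoded by Inha, joins a βA subunit (Inhba) or a βB subunit (Inhbb) to make inhibin A or inhibin B, while pairs of β subunits make the activins. Activins act locally on granulosa cells, the somatic cells around the oocyte, and inhibins restrain the release of follicle-stimulating hormone by the pituitary gland and use the co-receptor betaglycan (Tgfbr3). Follistatin (Fst) and Fstl3 bind and neutralise activins, and AMH, which signals through Amhr2, is a product of granulosa cells of growing follicles.

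Whole ovaries of C57BL/6 female mice were dissociated with collagenase and profiled with a droplet method that counts the 3′ ends of mRNAs. Ovaries came from embryonic day 16.5, which the sample title gives as day 17, and from days 7 and 14 after birth, with no treatment and no altered gene named in the labels. Each age was 1 library, the labels do not say how many animals went into it, and all 3 were sequenced on a single lane. A single library per age leaves no replicate to test an age difference against, and every interval below covers counting error only.

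The libraries held 456, 509 and 583 kept cells at the 3 ages in that order, with 8994085, 8743797 and 9065595 UMIs over all deposited barcodes, and no barcode occurred in more than 1 library. Cells were clustered with the 9 genes and other genes of the family left out of the clustering, and clusters were named from markers of 9 cell classes. Granulosa-like cells numbered 88, 88 and 92. They were cluster 0 at embryonic day 16.5, 83 cells of cluster 10 and 5 of cluster 15 at postnatal day 7, and 18 cells of cluster 10 and 74 of cluster 15 at postnatal day 14. Of the 22 granulosa markers, 21, 22 and 22 had a UMI in these cells. Their summed level was 5228, 6039 and 6416 CPM (UMIs per 1000000 of the class), and Foxl2, a transcription factor that defines granulosa cells, had 176.6, 324.8 and 285.5 CPM. The embryonic class differed from the postnatal ones in other markers too: in age order, surface epithelium markers summed to 1182, 117 and 51.4 CPM, stroma markers to 1179, 335 and 418 CPM, erythroid markers to 7946, 485 and 479 CPM, and theca markers to 431, 455 and 1075 CPM. Endothelium markers summed to 65.5, 24.5 and 225 CPM and were thus highest at postnatal day 14. The part of these other markers in the age differences below was not tested.

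The genes of both β subunits differed in their course over the ages, as given below, so the genomic sequence before each gene's start is shown. The 250 bases upstream of the start are given 5′ to 3′ on the gene's strand, from RefSeq on GRCm38.p6, and capitals mark a TATAAA motif.
Inhba: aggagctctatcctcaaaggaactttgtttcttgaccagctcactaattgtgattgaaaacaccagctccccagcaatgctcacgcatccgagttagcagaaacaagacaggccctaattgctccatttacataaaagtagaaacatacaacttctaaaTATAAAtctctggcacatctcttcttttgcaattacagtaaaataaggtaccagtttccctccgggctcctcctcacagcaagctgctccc
Inhbb: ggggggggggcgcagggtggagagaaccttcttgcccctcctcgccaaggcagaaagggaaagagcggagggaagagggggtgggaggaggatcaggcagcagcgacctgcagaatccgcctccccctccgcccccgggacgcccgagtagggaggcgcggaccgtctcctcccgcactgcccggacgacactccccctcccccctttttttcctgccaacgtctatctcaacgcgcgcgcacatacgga
The Inhba stretch lies at chr13:16011601-16011850 on the plus strand and holds TATAAA with its first base 91 bases upstream of the start. The Inhbb stretch lies at chr1:119422249-119422498 on the minus strand and holds none of the 3 motifs searched. These were the TATA box motif TATAAA, then AGGTCA (only part of the site bound by NR5A factors) and TGACGTCA (cyclic AMP response element). The rest of the NR5A site was not searched for. All 3 motifs were looked for on both strands of a window that also took in the 50 bases after the start. They occurred in 13.6%, 16.3% and 1.79% of the 32817 windows of this kind, and no motif contains another. A match describes the letters and is not evidence of binding. Windows were found for 6 of the 9 genes. Besides the one in Inhba, TATAAA lay on the other strand of Fstl3, and AGGTCA lay in Inha (69 bases upstream of the RefSeq start, which is inside the longer GENCODE gene given below, on the gene strand), Amhr2 (230 bases upstream, on the gene strand) and Fstl3 (200 bases upstream, on the other strand).

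In granulosa-like cells all 3 hormone subunit genes and Amh were higher after birth than at embryonic day 16.5, and Fst and Fstl1 were lower. At postnatal day 7, compared with embryonic day 16.5, 4 of the 9 members were at least 2-fold higher (Inha, Inhba, Inhbb, Amh), 2 were at least 2-fold lower (Fst, Fstl1) and 3 were within 2-fold (Fstl3, Amhr2, Tgfbr3). The fold for this count is taken on the log2(CPM + 10) scale, which shrinks the differences of weakly expressed genes, whereas a fold given for a single gene is a ratio of CPM. Of 13411 genes with at least 10 UMIs in the pair of libraries together, 3.24% were that much higher and 4.92% that much lower, 8.16% in all. The split was the same at postnatal day 14 compared with embryonic day 16.5, with 4 higher, 2 lower and 3 within 2-fold and the same genes in each, where the background was 2.76% higher and 5.98% lower, 8.73% in all. These comparisons share the embryonic library. Between postnatal day 14 and postnatal day 7 only Inha and Inhba were past 2-fold, both higher at postnatal day 14, where 1.19% of all genes were that much higher and 1.29% that much lower. The median log2 ratio of the 9 genes was 0.55, 0.90 and -0.07 in these comparisons, against -0.12, -0.13 and -0.02 over all genes tested.

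**Figure D1:**
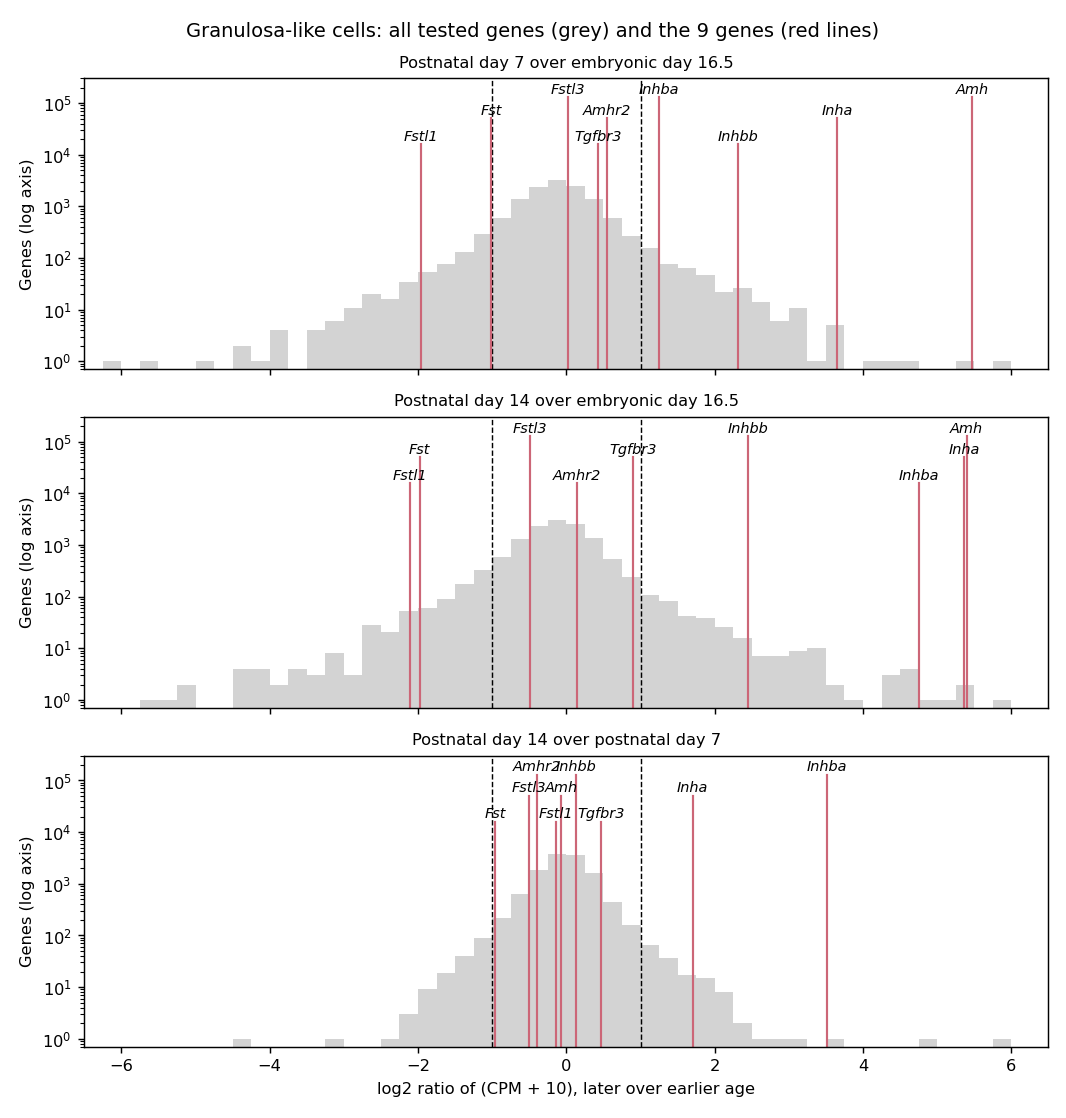
Number of genes (y axis) by log2 ratio of CPM + 10 in granulosa-like cells (x axis), 1 panel per pair of ages, later age over earlier. Grey bars are all genes with at least 10 UMIs in the pair of libraries, red lines are the 9 named genes and dashed lines mark a 2-fold difference; Inha and Inhba lie beyond the right dashed line in each panel.

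Inha, the shared α subunit gene (chr1:75507077-75510366 in GENCODE M21 on GRCm38), was the most abundant of the 9 at both postnatal ages. It had 99.7 CPM at embryonic day 16.5 (95% interval 85.8 to 115, 184 UMIs), 1372 CPM at postnatal day 7 (1320.4 to 1425, 2690 UMIs) and 4494 CPM at postnatal day 14 (4391 to 4599, 7163 UMIs). The intervals of the 3 ages did not overlap. A UMI counts a captured molecule whatever the transcript's length, so orders and shares between genes are given here in UMIs. Differences between genes in capture or mapping were not measured, and such orders and shares could be altered by them. Its level was 13.8-fold higher at postnatal day 7 than at embryonic day 16.5 (11.8 to 16.1), and 3.28-fold higher at postnatal day 14 than at postnatal day 7 (3.13 to 3.43). Most cells held it, in unequal amounts. The median granulosa-like cell held 2, 25 and 49 UMIs of Inha at the 3 ages, and the highest 15, 141 and 505. The 73 cells of postnatal day 14 without an Inhba UMI had 2815 CPM of Inha, 2.05-fold that of postnatal day 7 (1.95 to 2.16). Thinned to 5000 UMIs per cell, so that depth is equal, 43.2%, 92.0% and 98.9% of granulosa-like cells had an Inha UMI (78.4%, 95.5% and 100% unthinned, at median depths of 17368, 17833 and 12364.5 UMIs). For comparison, the thinned shares in endothelium-like cells were 0%, 4.76% and 27.6% (median depths 22343, 23381 and 22093 UMIs). The part of free RNA in these shares was not tested, here or for the genes below.

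Inhba, the βA subunit gene (chr13:16011851-16031621), was low until postnatal day 14. It had 2.17 CPM at embryonic day 16.5 (0.590 to 5.55, 4 UMIs), 18.9 CPM at postnatal day 7 (13.3 to 26.0, 37 UMIs) and 319 CPM at postnatal day 14 (292 to 348, 508 UMIs). The level at postnatal day 14 was 16.9-fold that of postnatal day 7 (12.1 to 24.3), the largest ratio among the 9 genes between these ages. Few cells carried it. At postnatal day 14, 19 of the 92 granulosa-like cells had an Inhba UMI and 73 had none, the highest cell had 74, and the 8 cells with at least 20 UMIs held 86.4% of them. The thinned share of cells with a UMI was 0%, 5.68% and 17.4% (unthinned 4.55%, 26.1% and 20.7%), against 0%, 0% and 3.45% in endothelium-like cells. In the annotation Inhba overlaps the pseudogene B230303A05Rik and the antisense gene Gm48444, Fst overlaps the antisense gene Gm47040, Fstl3 overlaps Prss57 on the opposite strand, and Tgfbr3 overlaps predicted genes, so these 4 counts could hold reads of a neighbour. Whether the counting used strand is not given in the sources used here.

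Inhbb, the βB subunit gene (chr1:119415465-119422248), differed mainly between the embryonic library and the postnatal ones. It had 37.9 CPM at embryonic day 16.5 (29.6 to 47.9, 70 UMIs), 228 CPM at postnatal day 7 (207 to 250, 447 UMIs) and 252 CPM at postnatal day 14 (228 to 277, 401 UMIs). The postnatal intervals overlapped, with a ratio of postnatal day 14 over postnatal day 7 of 1.10 (0.962 to 1.27), whereas postnatal day 7 was 6.01-fold higher than embryonic day 16.5 (4.66 to 7.85). The thinned share of cells was 13.6%, 51.1% and 44.6% (unthinned 44.3%, 87.5% and 63.0%), against 0%, 0% and 3.45% in endothelium-like cells.

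The share of each β subunit in the class therefore differed by age. Inhba supplied 5.41% of the Inhba and Inhbb UMIs of granulosa-like cells at embryonic day 16.5 (exact 95% interval 1.49 to 13.3, 4 of 74 UMIs), 7.64% at postnatal day 7 (5.44 to 10.4, 37 of 484) and 55.9% at postnatal day 14 (52.6 to 59.1, 508 of 909). The first 2 intervals overlapped, and the last lay above both. The 8 cells with at least 20 Inhba UMIs carried much of it: without them the share at postnatal day 14 was 21.1% (16.8 to 25.9, 69 of 327). In all cells with a Foxl2 UMI the earlier shares were 18.7% and 13.5%, but only 71 of 105 and 85 of 361 such cells were granulosa-like. In some other classes Inhba made up most of the sum: 92.9% in cluster 3 of the embryonic library (39 of 42 UMIs), 90.9% in stroma-like cells of postnatal day 7 (40 of 44) and 91.7% in cluster 13 of postnatal day 7 (22 of 24). In surface epithelium-like and germ cell-like cells of postnatal day 7 it was 1 of 16 and 1 of 21 UMIs. In granulosa-like cells the α subunit exceeded both β subunits together, with 2.49, 5.56 and 7.88 Inha UMIs per β UMI at the 3 ages, whereas cluster 3 had 0.619.

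**Figure D2:**
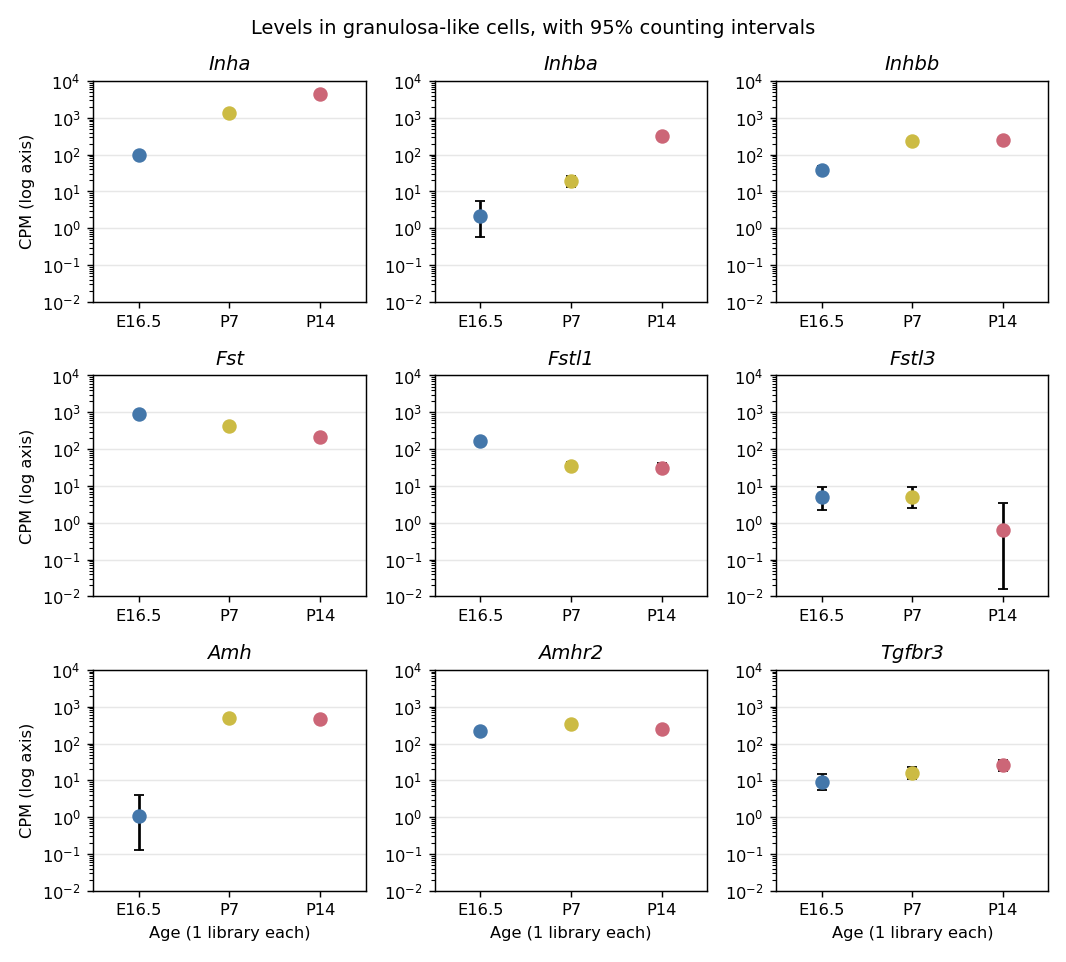
Level of each of the 9 genes in granulosa-like cells (y axis, CPM, log axis) at embryonic day 16.5 (E16.5), postnatal day 7 (P7) and postnatal day 14 (P14) on the x axis. Each point is 1 library and bars are exact Poisson 95% intervals; Inhbb and Amh sit at a like height at both postnatal ages (228 and 252 CPM for Inhbb, 480 and 457 CPM for Amh), while Inha and Inhba are higher at postnatal day 14.

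Amh (chr10:80805243-80807648), the hormone of growing follicles, was nearly undetected before birth and was close to its day 14 level by day 7. It had 1.08 CPM at embryonic day 16.5 (0.131 to 3.91, 2 UMIs), 480 CPM at postnatal day 7 (450 to 512, 942 UMIs) and 457 CPM at postnatal day 14 (424 to 491, 728 UMIs). Both postnatal intervals overlapped and lay far above the embryonic one, with a ratio of postnatal day 7 over embryonic day 16.5 of 443 whose interval is wide (122 to 3667) because it rests on 2 embryonic UMIs. Postnatal day 14 over postnatal day 7 gave 0.951 (0.862 to 1.05). Single cells spread widely: the median granulosa-like cell held 0, 6 and 4 UMIs and the highest 1, 92 and 61. The thinned share of cells was 0%, 67.0% and 66.3% (unthinned 2.27%, 87.5% and 77.2%), against 0%, 0% and 3.45% in endothelium-like cells.

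Among the activin antagonists, Fst (chr13:114452290-114458951) ran opposite to the subunits and was the most abundant of the 9 before birth. It had 890.5 CPM at embryonic day 16.5 (848 to 935, 1644 UMIs), 435 CPM at postnatal day 7 (406 to 465, 853 UMIs) and 218 CPM at postnatal day 14 (196 to 243, 348 UMIs). No intervals overlapped. Fst was 2.05-fold lower at postnatal day 7 than at embryonic day 16.5 (1.88 to 2.23), and 4.08-fold lower at postnatal day 14 than at embryonic day 16.5 (3.63 to 4.59). Its log2(CPM + 10) ratio between postnatal day 7 and embryonic day 16.5 was -1.02, at the edge of the 2-fold limit, and it was -0.86 when libraries were scaled by the median of ratios over genes, a scaling that moves the median of all genes by 0.10. Between postnatal day 14 and postnatal day 7 it was -0.96, just within 2-fold. The median cell held 15, 7 and 2 UMIs, and the thinned share of cells was 90.9%, 83.0% and 43.5% (unthinned 93.2%, 97.7% and 68.5%), against 0%, 0% and 10.3% in endothelium-like cells.

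Fstl3 (chr10:79777272-79782630), the other activin-binding antagonist, was close to the limit of detection, with 9, 10 and 1 UMIs in granulosa-like cells at the 3 ages. These counts gave 4.88, 5.10 and 0.627 CPM, and the ratio of postnatal day 14 over postnatal day 7 was 0.123. Over all kept cells it had 18, 43 and 42 UMIs, the fewest of the 9 genes over the 3 libraries. Fstl1 (chr16:37776873-37836514), a secreted glycoprotein that carries a follistatin-like domain, had 168 CPM at embryonic day 16.5 (150 to 188, 311 UMIs), 35.7 CPM at postnatal day 7 (27.8 to 45.1, 70 UMIs) and 31.4 CPM at postnatal day 14 (23.3 to 41.4, 50 UMIs). It was 4.72-fold lower at postnatal day 7 than at embryonic day 16.5 (3.63 to 6.21). Stroma markers in the same cells ran the same way, as given above, and Fstl1 was highest in stroma-like cells or in unnamed clusters, as described below. When the class was replaced by all cells with a Foxl2 UMI (105, 361 and 361 cells), the log2(CPM + 10) ratios of Fstl1 against embryonic day 16.5 were -0.20 at postnatal day 7 and -0.55 at postnatal day 14, within 2-fold. Only 71, 85 and 80 of those cells were granulosa-like, so after birth most of them came from other classes.

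Both receptor genes were within 2-fold in each of the 3 age comparisons. Amhr2 (chr15:102445367-102454633), the type II receptor of AMH, had 223 CPM at embryonic day 16.5 (412 UMIs), 331 CPM at postnatal day 7 (649 UMIs) and 248 CPM at postnatal day 14 (396 UMIs), and was thus present before its ligand. It was 1.48-fold higher at postnatal day 7 than at embryonic day 16.5 (1.31 to 1.68), and the ratio of postnatal day 14 over embryonic day 16.5 was 1.11 (0.967 to 1.28). The median cell held 4, 7 and 4 UMIs and the highest 13, 16 and 16, a narrower range than that of Amh at both postnatal ages. The thinned share of cells was 73.9%, 85.2% and 77.2% (unthinned 94.3%, 98.9% and 94.6%), against 0%, 4.76% and 6.90% in endothelium-like cells. Tgfbr3 (chr5:107106570-107289629), which encodes the co-receptor betaglycan, was low, with 9.21, 15.8 and 25.7 CPM (17, 31 and 41 UMIs). Its ratio of postnatal day 14 over embryonic day 16.5 was 2.79 (1.55 to 5.24), with a log2(CPM + 10) ratio of 0.90, within the 2-fold limit. That ratio was 1.39 on log2(CPM + 1) and 1.09 without mitochondrial and ribosomal protein UMIs, past the limit in both.

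Among all cell classes, Inha, Inhbb and Fst were highest in granulosa-like cells in each library, and Amh in both postnatal ones, with intervals apart from the next class. Inhba was highest there at postnatal day 14 only, Amhr2 at embryonic day 16.5 only, and Fstl1 and Tgfbr3 in other classes. Clusters with no name are given by number: cluster 3 (108 embryonic cells) was led by Ptn, Ncam1, Dlk1 and Meg3, cluster 12 by Tmem100, Enpep, Osr2 and Hhip, cluster 13 by mitotic genes such as Pimreg and Mxd3, and cluster 16 by Cxcl14, Ogn and Actg2. Stroma markers summed to 5618 CPM in cluster 3 and, at postnatal day 14, to 5034, 5189 and 8821 CPM in clusters 12, 13 and 16. Clustered on its own, the embryonic library gave a stroma-like cluster of 108 cells. In the embryonic library Inha was highest in granulosa-like cells (99.7 CPM) and next in cluster 3 (13.4 CPM), with intervals apart. At postnatal day 14 theca or steroidogenic-like cells, which make androgens around the follicle, stood between the granulosa-like cells and the rest. These 41 cells had 1488 CPM of Inha (1316 UMIs), 33.1% of the granulosa-like level, and all 41 had an Inha UMI (87.8% after thinning). The other classes of that library were far lower, with 89.1 CPM in endothelium-like cells, 93.2 CPM in surface epithelium-like cells and 37.5 CPM in erythroid-like cells, a level that free RNA may reach in droplets of other cells.

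The theca-like cells carried Inha without most of the granulosa partners. Relative to the granulosa-like level they had 4.61% of Inhba (14.7 CPM), 1.80% of Inhbb (4.52 CPM), 0.495% of Amh (2.26 CPM) and 27.3% of Amhr2 (67.9 CPM), and they had 0 UMIs of Fst, for which a count of 0 allows 3. Inha thus stood at 77.4 UMIs per β UMI there (17 β UMIs), against 7.88 in granulosa-like cells. Other classes of that age lay on both sides of 7.88. The ratio was 29.5 in cluster 13 (2 β UMIs), 13 in endothelium-like cells (5) and 4.29 in cluster 16 (38). Theca-like cells had high levels of their own markers. Cyp17a1, the androgen-making enzyme, had 1602 CPM in theca-like cells and 16.9 CPM in granulosa-like cells, and Cyp11a1 had 3121 CPM and 33.2 CPM. Granulosa markers summed to 1968 CPM in theca-like cells against 6416 CPM in granulosa-like cells, and differed from each other: Nr5a2 had 4.52 against 353 CPM, Serpine2 13.6 against 785 CPM and Foxl2 47.5 against 285.5 CPM, whereas Gja1 had 577 against 793 CPM. Some ran the other way: Wnt6 was higher in theca-like cells (215 against 142 CPM), as was Gng13 at a low level (12.4 against 6.27 CPM). With cells gated singly on markers, theca-like cells numbered 45 and had 2283 CPM of Inha.

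Amhr2 was shared with the surface epithelium or mesothelium-like cells. They had 350 CPM at postnatal day 7 (15 cells, 114 UMIs, 289 to 420) and 333 CPM at postnatal day 14 (12 cells, 107 UMIs, 273 to 402), and granulosa-like cells had 331 and 248 CPM. The granulosa-like interval overlapped at each age (225 to 274 at postnatal day 14). Amh in the same surface cells had 8 UMIs at postnatal day 7 and 0 at postnatal day 14, for which a count of 0 allows 3. Granulosa markers summed to 2909 and 2294 CPM in them, against 6039 and 6416 CPM in granulosa-like cells. Some of these markers were higher in the surface cells at both ages, such as Rspo1 (439 and 513 CPM, against 37.2 and 5.65 CPM in granulosa-like cells) and Lgr5 (138 and 180 against 2.55 and 0.627 CPM). Others were lower, such as Gatm (463 and 52.8 against 653 and 242 CPM) and Foxl2 (67.5 and 3.11 against 324.8 and 285.5 CPM).

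Fstl1 had its highest levels outside the granulosa-like cells, in stroma-like cells and in clusters 3 and 16, which took no name; the leading genes of cluster 16 include the smooth muscle markers Actg2, Tagln and Acta2 and the stroma marker Ogn. It had 397 CPM in cluster 3 at embryonic day 16.5, 467 CPM in the 194 stroma-like cells at postnatal day 7 and 289 CPM in the 251 cells of cluster 16 at postnatal day 14, against 168, 35.7 and 31.4 CPM in granulosa-like cells. The 5 stroma-like cells of postnatal day 14 had 406 CPM (248 to 628), which overlaps cluster 16. Theca-like cells of that age had 16.96 CPM. Fst supplied 84.1%, 92.4% and 87.4% of the Fst and Fstl1 UMIs in granulosa-like cells at the 3 ages and 0.533% in stroma-like cells of postnatal day 7, so that these related genes marked different compartments.

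Inhba was also found at a low level in cluster 3, stroma-like cells and cluster 16. Cluster 3 of the embryonic library had 20.1 CPM (14.3 to 27.5), above the embryonic granulosa-like cells at 2.17 CPM, and stroma-like cells of postnatal day 7 had 20.04 CPM, which overlaps the granulosa-like 18.9 CPM of that age. At postnatal day 14 cluster 16 had 10.3 CPM and theca-like cells 14.7 CPM, against 319 CPM in granulosa-like cells. Over all kept cells Inhba thus had 44, 110 and 555 UMIs, of which granulosa-like cells held 4, 37 and 508. Tgfbr3 was spread over classes. At postnatal day 14 theca-like cells had 50.9 CPM, endothelium-like cells 45.2 CPM and cluster 16 had 42.7 CPM, with overlapping intervals, and the 5 stroma-like cells had 101.6 CPM (33.0 to 237). The granulosa-like 25.7 CPM (18.5 to 34.9) lay below the intervals of theca-like cells (37.1 to 68.1) and of cluster 16 (35.3 to 51.3). At embryonic day 16.5 the order was endothelium-like (26.4 CPM), cluster 3 (22.2 CPM), then granulosa-like cells (9.21 CPM), whose interval lay below that of cluster 3. Fstl3 had at most 17 UMIs in any class of a library, and each class overlapped its neighbour in the order of levels at postnatal days 7 and 14.

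The 12 germ cell-like cells of postnatal day 7 held several granulosa products. They had 138 CPM of Inha (10.1% of the granulosa-like level), 71.8 CPM of Fst (16.5%), 84.5 CPM of Amhr2 (25.5%), 33.8 CPM of Amh (7.04%) and 21.1 CPM of Inhbb (9.27%). Granulosa markers moved with them: they summed to 1610 CPM in these cells, with 88.7 CPM of Foxl2, and the median cell held 81812.5 UMIs. The part of these markers in the levels was not tested.

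**Figure D3:**
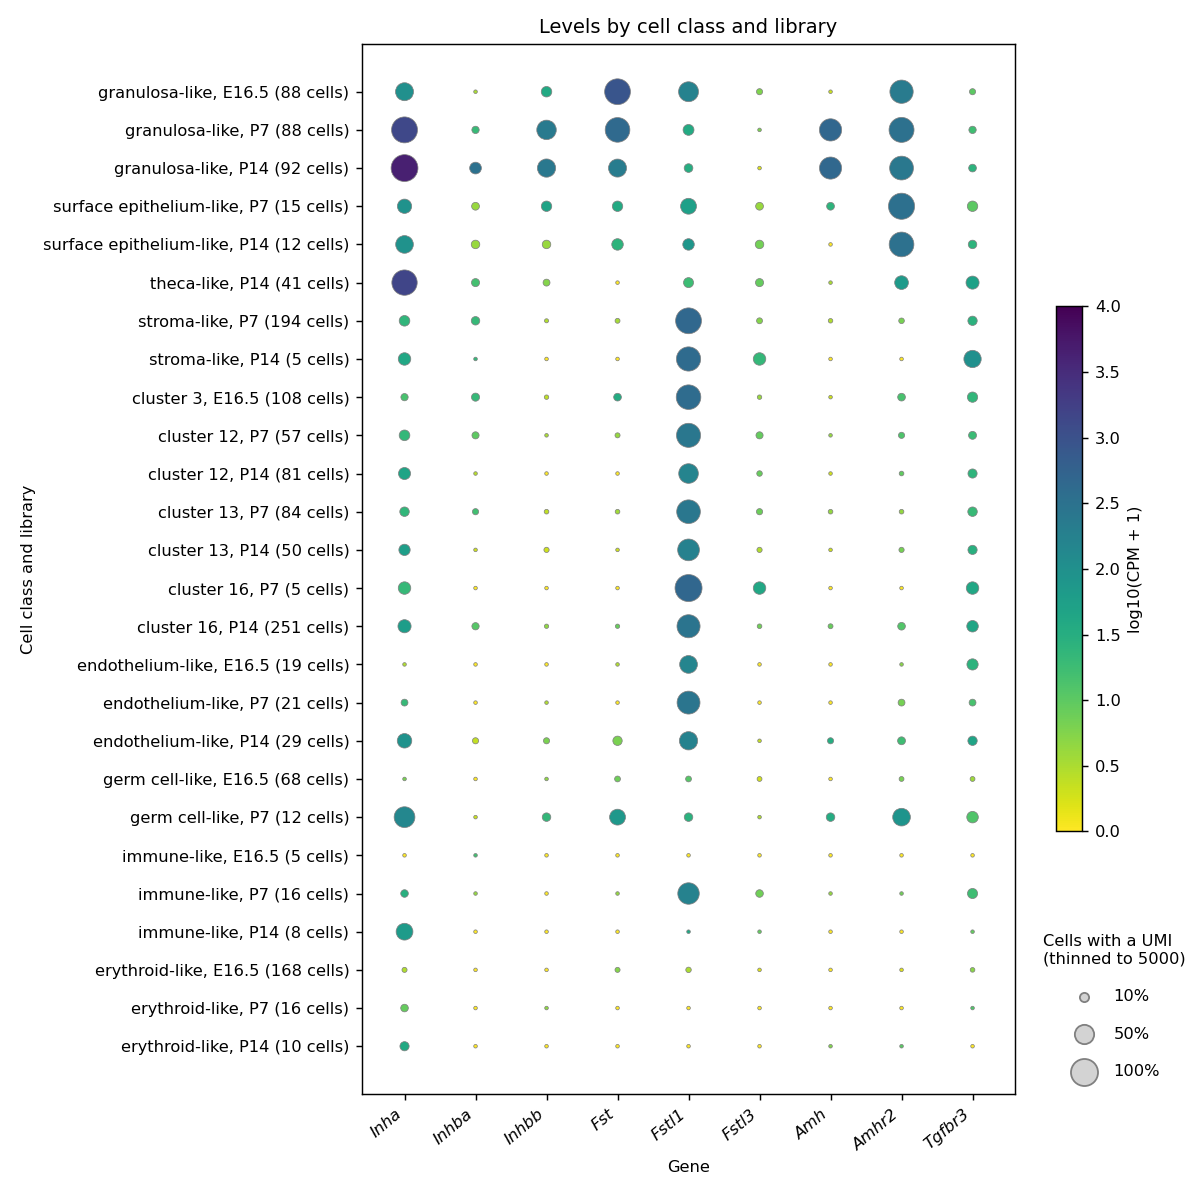
Level and share of cells for the 9 genes (x axis) in each cell class of each library (y axis; E16.5, P7 and P14 are the 3 ages). Colour is log10(CPM + 1) and dot size is the percentage of cells with a UMI after thinning to 5000 UMIs per cell; Inha is strong in granulosa-like and theca-like cells, and Fstl1 in cluster 3, stroma-like cells and cluster 16.

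Within single granulosa-like cells of postnatal day 14, Inhba went together with Inhbb and Fst and rarely occurred with Amh. After thinning to 5000 UMIs, 16 of 92 cells had Inhba. Of these, 13 also had Inhbb, where the separate shares give 7.13 cells, 14 had Fst (6.96 by the separate shares) and 2 had Amh (10.6). Stated as shares, Inhbb was seen in 81.3% of the cells with Inhba and 36.8% of those without, Fst in 87.5% and 34.2%, and Amh in 12.5% and 77.6%. The main inhibin pairs were no more frequent than their separate shares: Inha with Inhbb in 41 cells (40.6) and Inha with Inhba in 16 cells (15.8) at postnatal day 14, and Inha with Inhbb in 42 of 88 cells (41.4) at postnatal day 7. Nearly every cell had Inha, so these pairs follow the β subunits. The ligand and receptor pair Amh and Amhr2 shared 51 cells (47.1) at postnatal day 14 and 48 (50.3) at postnatal day 7, and Inhbb and Amh shared 25 (27.2) and 36 (30.2).

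Over these 92 cells the Pearson correlation of log thinned UMIs of Inhba was 0.60 with Inha, 0.55 with Inhbb, 0.59 with Fst and -0.38 with Amh. These values describe cells that share a library and a thinned depth, and no test was made. Thinned to 2000 UMIs, Inhba and Amh shared 1 cell (6.09 by the separate shares), and unthinned they shared 8 (14.7). At postnatal day 7 they shared 1 cell (3.35).

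**Figure D4:**
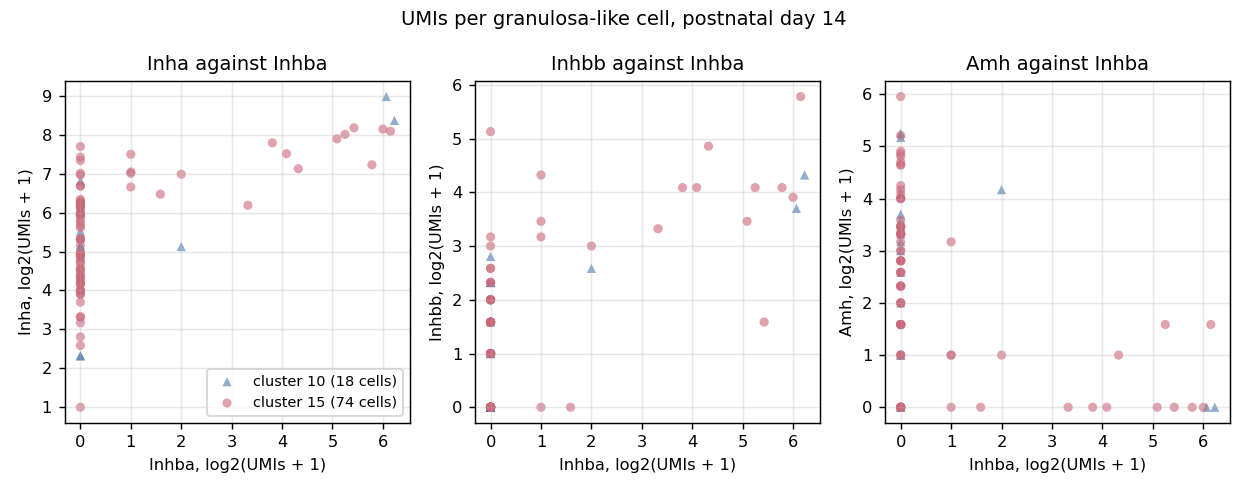
UMIs of Inha, Inhbb and Amh (y axis, log2(UMIs + 1), 1 panel per gene) against those of Inhba (x axis, same scale, UMIs as deposited) in each of the 92 granulosa-like cells of postnatal day 14. Each symbol is a cell, triangles from cluster 10 and circles from cluster 15; cells with many Inhba UMIs lie high for Inha and low for Amh.

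The 16 cells in which Inhba was detected after thinning and the 76 others were then set side by side by their summed deposited UMIs, a split that was chosen after the pairs were seen and is given as a description. Of the 76, 3 had Inhba UMIs before thinning (13, 3 and 1), so values are also given for the 19 cells with any deposited Inhba UMI and the 73 with none. The 16 and the 76 cells had median depths of 14134.5 and 12290 UMIs, and 2 and 16 of them were from cluster 10, the rest from cluster 15. Inha had 11099 CPM in the 16 cells and 2957 CPM in the 76, a ratio of 3.75 (3.58 to 3.93). Cell by cell, the median was 180 UMIs (34 to 505) in the 19 cells and 34 (1 to 207) in the 73, so the ranges overlapped. Inhbb had 765 and 132 CPM (5.78-fold higher, 4.72 to 7.09) and Fst had 585 and 133 CPM (4.40-fold higher, 3.54 to 5.46). Amh ran the other way, and the size of its difference depended on the split. It had 26.6 CPM in the 16 cells and 557 CPM in the 76 (20.9-fold lower, 10.6 to 48.7), but 88.8 CPM in the 19 and 569 CPM in the 73 (6.40-fold lower, 4.52 to 9.37), and with thinning to 2000 UMIs it was 8.51-fold lower. The highest cell held 17 Amh UMIs among the 19 and 61 among the 73. Amhr2 had 180 and 264 CPM (1.47-fold lower), and Tgfbr3 43.2 and 21.7 CPM (2.00-fold, 0.949 to 3.98), in the 16 and the 76 cells. Fstl1 had 59.8 and 24.7 CPM, but 1 cell that the doublet caller marked held most of its UMIs and of those of Tgfbr3 among the 16. Without marked doublets Tgfbr3 was 1.14-fold (0.386 to 2.80). Fstl3 had 0 UMIs and 1 UMI.

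Of the 7 other members with at least 10 UMIs, 4 were at least 2-fold higher (Inha, Inhbb, Fst and, with that marked cell, Fstl1), 1 was lower (Amh) and 2 were within 2-fold, where 3.45% of 10497 genes were that much higher and 2.48% that much lower. Their median log2 ratio was 1.01, against 0.04 over all genes tested. Without marked doublets 3 were higher, and the ratio of Fstl1 on the log2 scale was -0.0032.

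Granulosa markers divided along the same split, 5 of 20 measured being at least 2-fold higher in the 16 cells than in the 76, 5 lower and 10 within 2-fold. The higher group held Cyp19a1, the aromatase that makes oestradiol (96.4 against 6.19 CPM, 15.6-fold, 6.95 to 39.4), and Hsd17b1, which makes oestradiol from oestrone (864 against 139 CPM). It also held Fshr, the receptor of follicle-stimulating hormone (46.5 against 9.28 CPM, 5.01-fold, 2.15 to 11.9), Ihh, a hedgehog ligand (485 against 122 CPM), and Gja1, a gap junction protein (1709 against 580 CPM). The lower group was Slc18a2 (36.6 against 238 CPM), Wnt6 (36.6 against 167 CPM), Aard (123 against 454 CPM), Kctd14 (794 against 1826 CPM) and Gatm (123 against 269 CPM). With the 19 and the 73 cells Slc18a2 had 70.0 against 239.7 CPM, and the counts were again 5 higher and 5 lower. Foxl2 had 326 against 276 CPM, a ratio of 1.18 (0.934 to 1.48). Their median log2 ratio was 0.28.

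**Figure D5:**
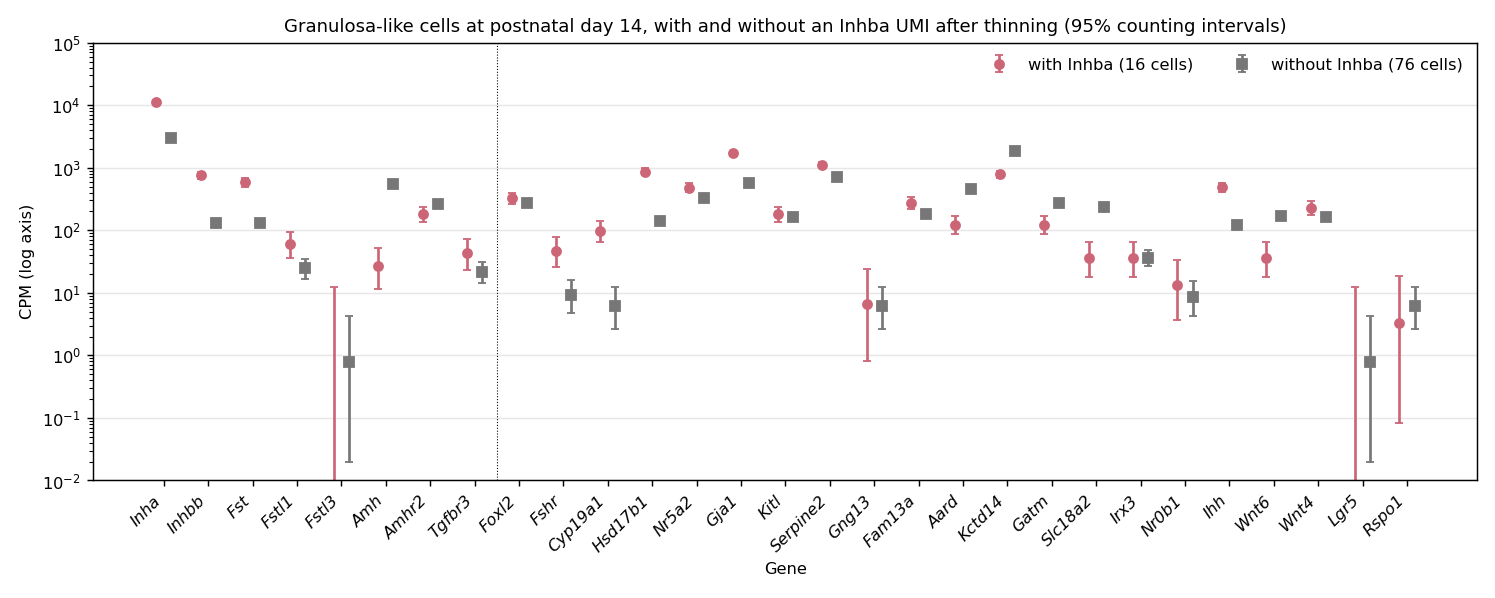
Level in granulosa-like cells of postnatal day 14 with Inhba detected after thinning to 5000 UMIs and without (CPM from all deposited UMIs, log axis), for the 8 other members and then for granulosa markers. Each point is the sum over the 16 or the 76 cells, bars are exact Poisson 95% intervals, and a bar without a point is a gene at 0 UMIs; Inha, Inhbb, Fst, Cyp19a1 and Fshr are higher in the 16 cells, and Amh and Slc18a2 are lower. Of the 76 cells, 3 had Inhba UMIs that thinning removed.

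Other genes of the pathway were looked at through 48 genes in 5 lists (receptors, SMAD proteins, other ligands, convertases, and extracellular and membrane regulators). Of the 32 with at least 10 UMIs, 4 were at least 2-fold higher and 1 lower at postnatal day 7 than at embryonic day 16.5 (3.24% and 4.92% over all genes), with a median log2 ratio of -0.34. Those described here were Bmp4 (22.9 against 5.96 CPM), Pcsk6, a convertase that cleaves TGF-β family precursors (337 against 112 CPM), and Chrdl1, a BMP antagonist, with 22 UMIs against 0. The lower one was the ligand Bmp2 (2.04 against 44.96 CPM), and Bmp7, at the same end of the list, had 4.59 against 19.0 CPM, within 2-fold on the log2(CPM + 10) scale. At postnatal day 14 compared with embryonic day 16.5, 3 of 31 were higher and 4 lower (2.76% and 5.98% over all genes), with a median of -0.31. The higher ones included Bmpr1b, a type I BMP receptor (43.3 against 4.88 CPM, 8.88-fold, 4.42 to 20.2), and the co-receptor Eng (34.5 against 8.67 CPM). The lower ones were Bmp2 (7.53 against 44.96 CPM), Bmp7 (3.14 against 19.0 CPM), Tgfb2 (5.02 against 25.5 CPM) and Bambi, a decoy receptor (31.4 against 114 CPM). Between postnatal day 14 and postnatal day 7, 1 of 32 was higher, Eng (34.5 against 3.06 CPM), and 3 were lower, among them Tgfb2 (5.02 against 22.9 CPM) and Bambi (31.4 against 79.0 CPM), with a median of -0.04 (1.19% and 1.29% over all genes). The endothelium markers of these cells ran the same way as Eng over the 3 ages (65.5, 24.5 and 225 CPM). Their part in the Eng levels was not tested. Bmpr1b, at the upper end with Eng, had 43.3 against 16.8 CPM and lay within 2-fold. None of the 7 measured SMAD genes, which encode the intracellular messengers of the family, was past 2-fold in any pair of ages, and no measured receptor gene was past 2-fold between postnatal day 7 and embryonic day 16.5.

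Genes with the most similar pattern to each member were ranked by Pearson correlation of log2(CPM + 10) over the 15 sums of a class in a library with at least 20 cells, among 11569 genes. These sums share libraries, so the values are a description. Amh was most like Slc18a2 and Nr5a2 (0.98 each) and Apoa1, Inhbb most like Wfdc10 (0.99), Large2 and Tmem184a (0.98 each), and Fst most like Krt8, Tmem114 and Crip3 (0.98 each). Inha was most like Fads6 (0.95), Tppp3 and Gramd1b (0.93 each), and Amhr2 most like Sdc4 (0.97), Hsbp1l1 and Rnf213. Inhba had a lower best value, with Cyp2s1 (0.90), Nap1l5 (0.89) and Otor (0.88). Fstl1 was most like Eln, which encodes elastin (0.96), Anxa6 and Stard5, Tgfbr3 most like Pros1 (0.90), Hoxd4 and Ccdc32, and Fstl3 most like Eps8 (0.88), Fam58b and Rbms2.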

How the data were processed

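Whole-ovary cells were measured in 3 libraries, 1 per age, grouped by the labels. The deposited files hold UMI counts per gene and cell barcode, not normalized, and per the submitters' processing notes they come from Cell Ranger 2.1.1 with GRCm38. For the gene models and the calling of cells, nothing is given in the sources used here. Totals were 8743797 to 9065595 UMIs per library, and 108 symbols are shared by several identifiers.

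Of 1554 barcodes, 1548 passed a minimum of 200 detected genes and a maximum of 20% mitochondrial UMIs. Log counts, each cell scaled to a total of 10000, were reduced to 2000 variable genes and 30 principal components, with the members and pathway genes left out, and the 15-neighbour graph was partitioned with Leiden (resolution 1.0) (scanpy 1.11.5, igraph 0.11.9). Of 18 clusters, 14 were named from 114 markers. A name needed 3 or more of its markers raised at least 2-fold over all other cells, and more of them than any other class. It also needed at least 1 among the 10 leading genes, a threshold set after the data were seen, and no other class with more there. Scrublet marked 6 doublets, which were kept, and left out as an alternative.

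UMIs were summed per class and library and scaled to 1000000 (CPM) with exact Poisson 95% intervals; ratios have exact conditional binomial intervals and shares Clopper-Pearson ones (scipy 1.17.1). PCR copies are collapsed by UMI, but intervals still cover counting error only. A gene at 0 has a limit of 3 UMIs. With 1 library per age no p-value was computed. Shares of cells were taken after thinning each cell to 5000 UMIs; 0 cells were shallower. The count scripts were tested on simulated data. All members are named, as are pathway genes at least 2-fold apart or among the 2 at each end (other than the genes not reported here), and the 3 genes most like each member. The members, lists and rules were chosen with earlier results of these data known. Alternatives concerned the clustering, the gate, doublets, scaling, the pseudocount, the filter and thinning. Some genes of the marker and pathway lists count in the totals but are not reported here.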

Additional observations from a re-analysis of the deposited data

Results flagged for a closer look

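Some members differed between ages in opposite directions in different cell classes; the difference between classes was not tested. Inhba at postnatal day 14 compared with postnatal day 7 was 16.9-fold higher in granulosa-like cells, but 5.19-fold lower in cluster 12 (2 UMIs against 8) and 15.2-fold lower in cluster 13 (1 UMI against 22). Fst at postnatal day 7 compared with embryonic day 16.5 was 10.9-fold higher in germ cell-like cells (71.8 against 6.59 CPM), whose granulosa markers summed to 1610 against 197 CPM, and 2.05-fold lower in granulosa-like cells. The germ cell-like cells of these ages come from different clusters, with all 12 of postnatal day 7 in cluster 9 (led by Ooep, Dppa3 and Zp3) and all 68 of embryonic day 16.5 in cluster 1 (with Sycp1 and Stra8). Fstl1 in that comparison was 1.86-fold higher in endothelium-like cells (279 against 150 CPM) and 2.55-fold higher in germ cell-like cells (25 UMIs against 11), while it was 4.72-fold lower in granulosa-like cells.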

How the results depend on the processing

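No paired analysis was possible because each age has 1 library and no test was made. Over 13 alternatives, the number of members at least 2-fold higher was 3 to 4, 4 to 5 and 2 (postnatal day 7 and postnatal day 14 over embryonic day 16.5, then postnatal day 14 over postnatal day 7), and the number at least 2-fold lower was 1 to 2, 1 to 3 and 0 to 1. Of 383 values of single members under the alternatives, 365 kept their side of the 2-fold limit. Some alternatives changed few or no granulosa-like cells. Leiden resolution 0.5 gave the same cells, so its 27 values could not move. Resolution 2.0 gave 90, 88 and 92 cells, and leaving out marked doublets gave 88, 87 and 91. With all cells with a Foxl2 UMI, 23 of 27 values kept their side. The Inhba share of β subunit UMIs was 18.7% at embryonic day 16.5 and 13.5% at postnatal day 7 in all cells with a Foxl2 UMI. At postnatal day 14 it was 50.9% with cells gated singly on markers, 59.7% without the 5% of cells with most UMIs, 51.6% in the largest cluster and 21.1% without the 8 cells with at least 20 Inhba UMIs. Cells with Inha and Inhbb numbered 22 (thinned to 2000 UMIs) and 77 (not thinned) at postnatal day 7 and 22 (thinned to 2000) at postnatal day 14, and cells with Inhba and Amh 1 and 8 at postnatal day 14, as fewer or more UMIs are read. With the single-cell gate Inha had 2283 CPM in theca-like and 4214 CPM in granulosa-like cells of postnatal day 14, Fstl1 352.5 CPM in stroma-like cells of postnatal day 7, and Fst 980 CPM in the 27 embryonic granulosa-like cells it kept. In the Inhba split, Fstl1 reversed to a log2 ratio of -1.21 with thinning to 2000 and -0.0032 without marked doublets; the ranges over the alternatives were 1.49 to 2.42 for Inha, 2.21 to 2.56 for Inhbb, 1.86 to 2.28 for Fst and -3.95 to -2.55 for Amh. In all cells with a Foxl2 UMI, the Inhba log2 ratio of postnatal day 7 over embryonic day 16.5 was 0.45, within 2-fold. Of those cells, 71 of 105, 85 of 361 and 80 of 361 in age order were granulosa-like, and the rest were of other classes. The cause was not tested for these gates. The depth limits Fstl3, embryonic Inhba and embryonic Amh, which rest on 10 or fewer UMIs each. The largest-cluster, top-cell, 20-UMI and Inhba-split alternatives were chosen after seeing the data.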
